A study of Rattus norvegicus with 4 samples.

Results

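The JAK, STAT and SOCS genes were examined in colon tissue of rats treated with mesenchymal stem cell transplantation (MSCT) and of control rats. Each gene was found by its RefSeq transcript in the rat gene table, and where a gene had several measured transcripts the brightest was taken. Of the 9 genes, 8 had a transcript measured on all 4 arrays, out of 6963 named genes and 18350 measured transcripts. These were Jak2, Jak3, Stat3, Stat5a, Stat5b, Socs1, Socs2 and Socs3, each with 1 transcript. No transcript was matched to Jak1, which was not analysed here.

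RNA of 2 control samples and 2 MSCT samples (labelled case), all from male Sprague Dawley rats whose age is not given in the sources used here, was labeled with a single dye and hybridized to 4 NimbleGen arrays. The labels do not say that replicates are separate animals, so p-values measure only the spread between these samples. The MSCT rats had colitis induced by TNBS (2,4,6-trinitrobenzene sulfonic acid) instilled into the colon, a model of inflammatory bowel disease (IBD), and received MSCs by the tail vein. These MSCs came from a commercial supplier and carried green fluorescent protein introduced by a virus. The control rats received no MSCs, and the sources differ on whether they had TNBS colitis: the sample descriptions call them normal and the study compares with IBD rats. A difference between the groups may therefore belong to colitis, to MSCT or to both, and these cannot be told apart here. The day of sampling also differs between passages of the study, so no day is given.

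Cytokines that bind receptors without a kinase of their own signal through the Janus kinases (JAKs), which sit on the receptor chains and phosphorylate one another and the receptor. STAT proteins dock there, are phosphorylated, pair and enter the nucleus to drive transcription. Among the genes they switch on are the SOCS genes, whose products bind JAKs or receptors and end the signal, so that SOCS transcripts are often read as a trace of recent STAT activity. In the gut, STAT3 acts downstream of interleukin-6 and interleukin-22 in epithelial repair and in T cell responses, and inhibitors of JAKs are used to treat ulcerative colitis. Most of this pathway is regulated by phosphorylation, which RNA arrays do not measure.

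The values are linear intensities, and differences between the groups are given on the log2 scale, where 1 is a fold change of 2. Array medians lay between 848 and 893. The tissue carried the colon epithelial markers with a measured transcript (8 of 12, among them Epcam, Cdh1, Krt20, Slc26a3 and Cdx2). Each intensity belongs to its own probes, so levels were compared between arrays and not between genes. In RNA from whole tissue, more cells of a type cannot be told apart from more RNA per cell.

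No member passed the screen named in the study, which required a fold change over 2 together with an unadjusted p under 0.05, against 4.63% of all transcripts (2.12% higher and 2.51% lower in the MSCT group). That share uses the p-values of limma, and with the methods' t-test in their place 388 of the 18350 transcripts passed, again with no member among them. By limma, which shares the variance estimate between transcripts, 1 of the 8 had an unadjusted p under 0.05 (12.0% of all transcripts), namely Jak3. None passed an adjusted p of 0.05, nor did any of the 18350 transcripts (0.00%). The MSCT arrays both lay above the control arrays for 5 members (Jak3, Stat3, Socs1, Socs2 and Socs3), against 21.3% of all transcripts, and both below for none, against 24.5%. Like the members, the 6963 named genes have 1 transcript per gene, and of these 1925 lay above and 1409 below. In either direction the groups did not overlap in 5 of 8 members, in 45.8% of all transcripts and in 47.9% of named genes. The median difference of the 8 members was 0.22 on the log2 scale. That of all measured transcripts was -0.019 and that of the named genes was 0.053. The smallest two-sided p of an exact permutation test in this design is 0.333, which cannot pass 0.05.

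**Figure D1:**
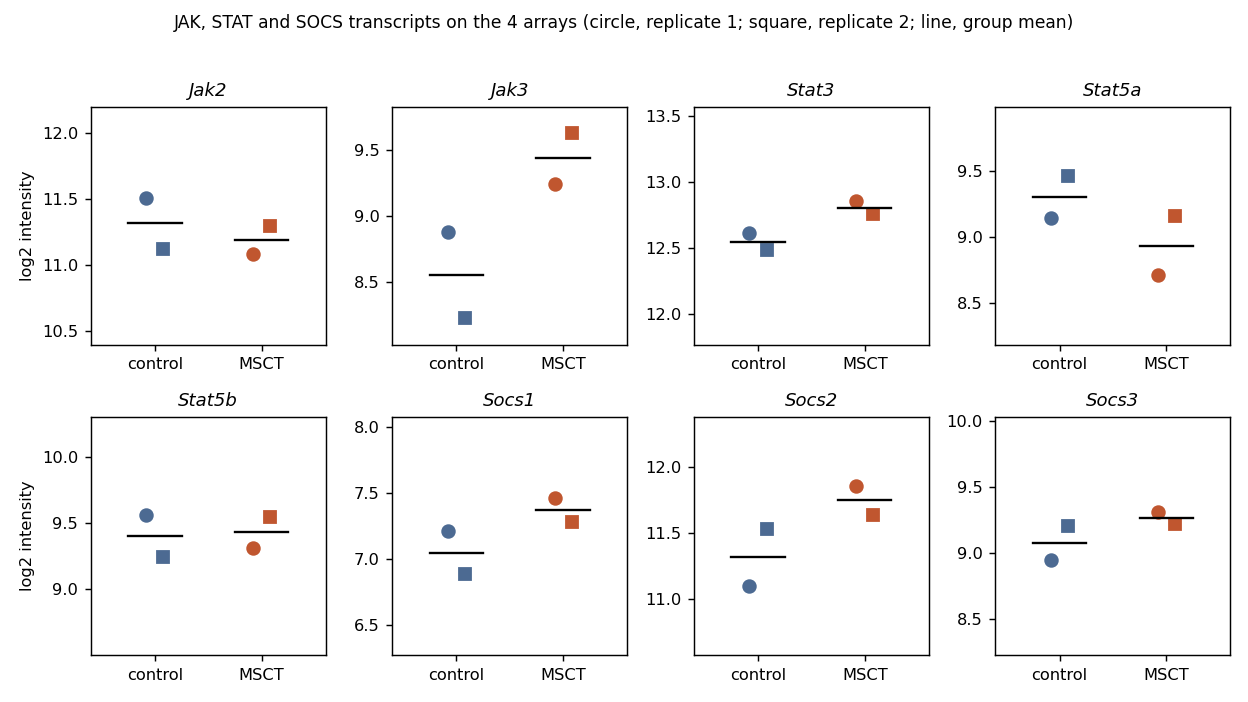
Log2 intensity (y axis) of the 8 measured genes on the control arrays (blue) and MSCT arrays (orange), with replicate 1 as a circle, replicate 2 as a square and the group mean as a line; every panel spans the same range of log2 units. The points of the groups do not overlap for Jak3, Stat3, Socs1, Socs2 and Socs3, and they overlap for Jak2, Stat5a and Stat5b.

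Among the kinases, Jak3 differed most. Jak3 (NM_012855) encodes the JAK that binds the common gamma chain, the receptor subunit shared by interleukins 2, 4, 7, 9, 15 and 21, and is found mainly in blood cells. Replicates 1 and 2 had intensities of 471 and 299 in the control group and of 605 and 789 in the MSCT group, in which order all values are given here. Both MSCT arrays were brighter than both control arrays, and the control arrays were themselves 1.57-fold apart. On the log2 scale, Jak3 was at 8.55 ± 0.46 (SD, n = 2) in the control group and 9.43 ± 0.27 (SD, n = 2) in the MSCT group. The difference was 0.88 (standard error 0.31, 1.84-fold), below the 2-fold limit. The limma p was 0.0420 unadjusted and 0.402 adjusted over all transcripts, and the exact permutation p was 0.333. Its size exceeded that of 90.8% of all transcripts.

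The call for Jak3 at an unadjusted p depended on single arrays. Without control replicate 1, the difference was 1.21 (limma adjusted p = 0.507), its unadjusted p was still under 0.05 and the gene then passed the screen. The unadjusted limma p was over 0.05 without any 1 of the other arrays. The difference was then 0.55 without control replicate 2 (adjusted p = 0.454), 1.07 without MSCT replicate 1 (adjusted p = 0.695) and 0.69 without MSCT replicate 2 (adjusted p = 0.689). Jak3 was higher in the MSCT group each time. The methods' t-test, the plain test with equal variances that one-way analysis of variance amounts to for a pair of groups, also gave an unadjusted p over 0.05 (adjusted p = 0.606).

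Jak2 (NM_031514), the kinase of the receptors for growth hormone, prolactin, erythropoietin, leptin and, with JAK1, interferon-γ, did not separate the groups. The control replicates read 2917 and 2222 and the MSCT replicates 2175 and 2514, so that the control arrays held the brightest value and the MSCT arrays fell on both sides of the other. The difference was -0.12 (standard error 0.23; limma adjusted p = 0.856), and its sign turned when control replicate 1 was left out (0.073). The 95% interval ran from 0.596-fold to 1.42-fold, which does not include a doubling or a halving.

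Stat3 (NM_012747), the STAT of interleukin-6, interleukin-10 and interleukin-22 signaling, had intensities of 6262 and 5714 in the control group and 7415 and 6901 in the MSCT group. The replicates lay within 1.10-fold of each other in both groups, and the MSCT arrays were both higher. The difference was small at 0.26 (standard error 0.19, 1.20-fold; limma adjusted p = 0.619) and lay between 0.19 and 0.32 with single arrays left out. Its 95% interval was 0.843-fold to 1.70-fold.

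Stat5a and Stat5b are closely related genes that lie next to each other and to Stat3 on chromosome 10, and their products serve growth hormone, prolactin and interleukin-2 receptors. How far probes of this pair share signal cannot be read from the values. Stat5a (NM_017064) had control intensities of 567 and 707 and MSCT intensities of 419 and 573. The lowest value was in the MSCT group and the highest in the control group, with MSCT replicate 2 and control replicate 1 close together between them. Its difference was -0.37 (standard error 0.26, 1.29-fold lower; limma adjusted p = 0.606). Stat5b (NM_022380) had control intensities of 754 and 606 and MSCT intensities of 633 and 747, where the control arrays enclosed both MSCT arrays. The difference was 0.026 (standard error 0.22; limma adjusted p = 0.973), and its sign turned without control replicate 2 (-0.13) or without MSCT replicate 2 (-0.094). The 3 neighbouring genes thus had estimates above, below and near 0, none of them past a test.

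The 3 SOCS genes measured all had higher intensities on both MSCT arrays, by amounts that did not pass the test. Socs1 (NM_145879) encodes the inhibitor best known for limiting interferon-γ signaling. It was among the dimmest 25% of transcripts, with control intensities of 148 and 118 and MSCT intensities of 177 and 156. The lower MSCT array was close to the higher control array. The difference was 0.32 (standard error 0.22, 1.25-fold; limma adjusted p = 0.597).

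Socs2 (NM_058208) encodes the feedback inhibitor of growth hormone and STAT5 signaling. The control replicates read 2195 and 2967 and the MSCT replicates 3716 and 3189. The control arrays were 1.35-fold apart, as far as the group means (difference 0.43, standard error 0.24, 1.35-fold; limma adjusted p = 0.541). With a variance that depended on intensity, Socs2 had an unadjusted limma p under 0.05 (adjusted p = 0.339). Over the arrays left out in turn, its difference lay between 0.21 and 0.65.

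Socs3 (NM_053565), the inhibitor that binds the interleukin-6 receptor chain gp130 and a target gene of STAT3, had control intensities of 493 and 588 and MSCT intensities of 635 and 596. Control replicate 2 and MSCT replicate 2 were almost level. The difference was 0.19 (standard error 0.20, 1.14-fold; limma adjusted p = 0.727), and without control replicate 1 it was 0.065.

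**Figure D2:**
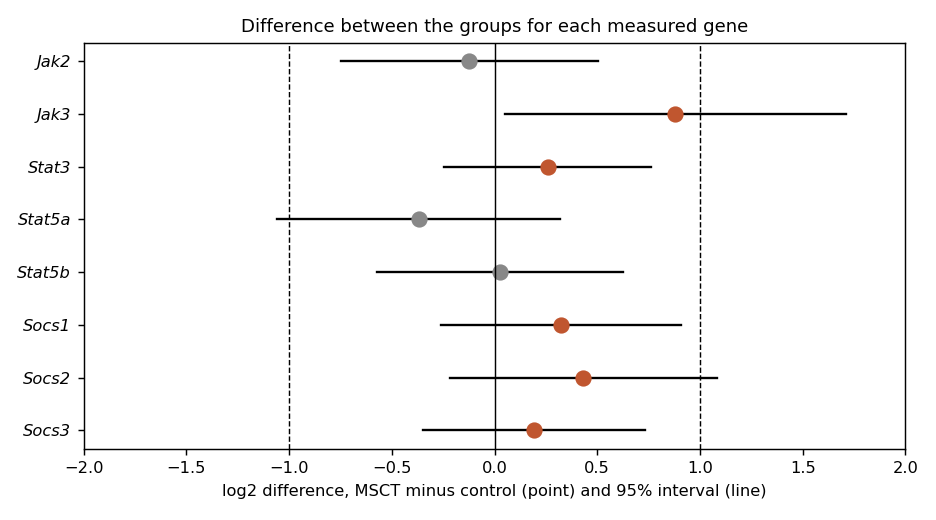
Difference of the group means on the log2 scale, MSCT minus control (points), with the 95% interval of the limma fit (lines) for each gene; orange points mark genes whose groups do not overlap, and dashed lines mark a 2-fold difference either way. The interval of Jak3 alone leaves out 0, and those of Jak3, Socs2 and Stat5a reach a 2-fold difference.

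The width of these intervals limits what could be seen with 2 arrays per group. The intervals of Jak2, Stat3, Stat5b, Socs1 and Socs3 all stayed within a 2-fold difference in either direction (Stat5b 0.672-fold to 1.54-fold, Socs1 0.835-fold to 1.88-fold, Socs3 0.786-fold to 1.66-fold). Those of Jak3 (1.03-fold to 3.27-fold), Socs2 (0.860-fold to 2.12-fold) and Stat5a (0.480-fold to 1.25-fold) did not. Within the MSCT group, Stat3, Socs1, Socs2 and Socs3 were each brighter on replicate 1, and Jak2, Jak3, Stat5a and Stat5b on replicate 2. Within the control group, Socs2, Socs3 and Stat5a were brighter on replicate 2 and the other 5 on replicate 1.

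Promoter windows were read because SOCS genes are direct targets of STATs. The windows span 250 bases before to 50 bases after the transcript start, and the RefSeq table of rat assembly GRCr8 held one for 6 members (Jak2, Stat3, Stat5a, Stat5b, Socs1 and Socs3). The core letters of a STAT site, TTCNNNGAA, which read the same on both strands, were in the window of Socs1 alone among the 6 and in 8.87% of the 33469 windows of the table. Sites outside a window were not searched for, so a window without the core does not show that the gene lacks a STAT site. The Socs3 window ends in letters of its coding sequence, so it may not cover the promoter of that gene. The core of an interferon-stimulated element, a pair of GAAA blocks with 2 bases between them on either strand, was searched after the Socs1 sequence had been read. It was again in the window of Socs1 alone among the 6, and in 3.92% of all windows. The Socs1 window is shown because it holds both (GRCr8 chr10:5389324-5389623, plus strand). The first run of capitals is the STAT core, TTCAGGGAA, which begins 196 bases before the start. The second run holds a pair of overlapping interferon cores, GAAAGAGAAA at 107 bases and GAAACCGAAA at 101 bases before the start. These letters are a description of the reference sequence, and binding was not measured.
Socs1: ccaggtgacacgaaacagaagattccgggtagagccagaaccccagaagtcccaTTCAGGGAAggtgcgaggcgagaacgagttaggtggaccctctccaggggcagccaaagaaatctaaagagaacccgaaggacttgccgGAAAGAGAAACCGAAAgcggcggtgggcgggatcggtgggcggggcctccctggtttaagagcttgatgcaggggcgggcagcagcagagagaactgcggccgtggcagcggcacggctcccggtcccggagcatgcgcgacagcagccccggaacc

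The other genes of the pathway were described by lists, and the lists give the setting in which the members were measured. These lists were chosen with earlier results of these data known, so their counts are descriptions and not tests. Of the other kinases and STATs, Stat2 and Stat6 are given here, Stat4 was blank on all 4 arrays and no transcript was matched to Tyk2. Stat2, a STAT of the interferon-α/β response, was at 1431 and 1351 in the control group and lower, at 975 and 877, in the MSCT group. Its difference of -0.59 (standard error 0.19; limma adjusted p = 0.369) had an unadjusted p under 0.05, and for comparison 7.17% of all transcripts were lower at an unadjusted p under 0.05. With any 1 array left out, Stat2 kept its direction (-0.66 to -0.51) but had an unadjusted limma p over 0.05. Stat6, the STAT of interleukins 4 and 13, differed by -0.15. None of the other SOCS family genes (Cish, Socs4, Socs5, Socs6 and Socs7) was matched to a transcript, so the SOCS family was seen through 3 genes.

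Of the other regulators of the pathway, listed as inhibitors, 8 of 13 were measured, with 0 at an unadjusted p under 0.05 by limma, a median difference of 0.028 and a range from -0.35 to 0.37. With single arrays left out, this median lay between -0.090 and 0.065. The largest values were those of Ptpn1 (0.37), a phosphatase of JAK2 and TYK2, Sh2b1 (-0.35), an adaptor known to activate JAK2 and so no inhibitor, and Usp18 (0.30), a brake on the interferon-α/β receptor.

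Of the genes listed as receptors that use JAKs, some of them decoys that do not signal, 20 of 39 were measured, 6 were blank and 13 had no matched transcript. Of the 20, 2 had an unadjusted limma p under 0.05, both higher in the MSCT group and both past the screen, against 4.80% and 2.12% of all transcripts in that direction. Of the 6963 named genes, 475 and 218 were higher by these rules. None of the 20 receptors was lower at an unadjusted limma p under 0.05, and their median difference was 0.087. Single arrays moved this median, to 0.16 without control replicate 1, 0.22 without MSCT replicate 1 and 0.23 without control replicate 2. Lepr, the leptin receptor, had the lowest difference (-1.09) without passing the test. Il2rg is the common gamma chain, the receptor subunit to which JAK3 binds. The control replicates read 257 and 153 and the MSCT replicates 573 and 512. The groups lay well apart, at a difference of 1.45 (standard error 0.31; limma adjusted p = 0.292), and its unadjusted limma p stayed under 0.05 with each array left out (difference 1.08 to 1.82), although by the methods' t-test it was over 0.05. Osmr, the receptor subunit of oncostatin M, was at 156 and 174 against 277 and 430, a difference of 1.07 (limma adjusted p = 0.330). Without control replicate 1 (0.99) or MSCT replicate 2 (0.75) its unadjusted limma p was over 0.05, as was that of the methods' t-test. The count of receptors at an unadjusted p under 0.05 also moved with single arrays, to 1 without control replicate 1, 3 without MSCT replicate 2, 4 without MSCT replicate 1 and 5 without control replicate 2. Of the chains that pair with the common gamma chain, 3 were measured. Il2rb, of the interleukin-2 and interleukin-15 receptors, was at 82.8 and 186 against 139 and 348, Il4r at 1734 and 1645 against 1447 and 1578, and Il9r at 117 and 114 against 131 and 94.5, with differences of 0.82, -0.16 and -0.050, none past the test. The interleukin-6 receptor chains Il6r (0.072) and Il6st (0.064), through which STAT3 and Socs3 respond, had differences near 0, but each had a pair of replicates far apart. Il6st was at 2132 and 1049 in the control group, and Il6r at 71.7 and 254 in the MSCT group.

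Ligands were poorly covered. Of 35 genes, 26 had a transcript on the array, and 18 of these were blank on all 4 arrays, among them Il6, Il10, Il2, Il4, Osm and Ifng. The rule behind blank values is not given in the sources used here, so they were not read as absence. The 8 ligands measured had a median difference of -0.013 (-0.099 to 0.095 with single arrays left out), and 0 had an unadjusted limma p under 0.05. The largest differences were those of Lif (0.28), a ligand that signals through gp130, Thpol1 (-0.28), listed under its older name of thrombopoietin, and Il23a (0.26), a subunit of interleukin-23.

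**Figure D3:**
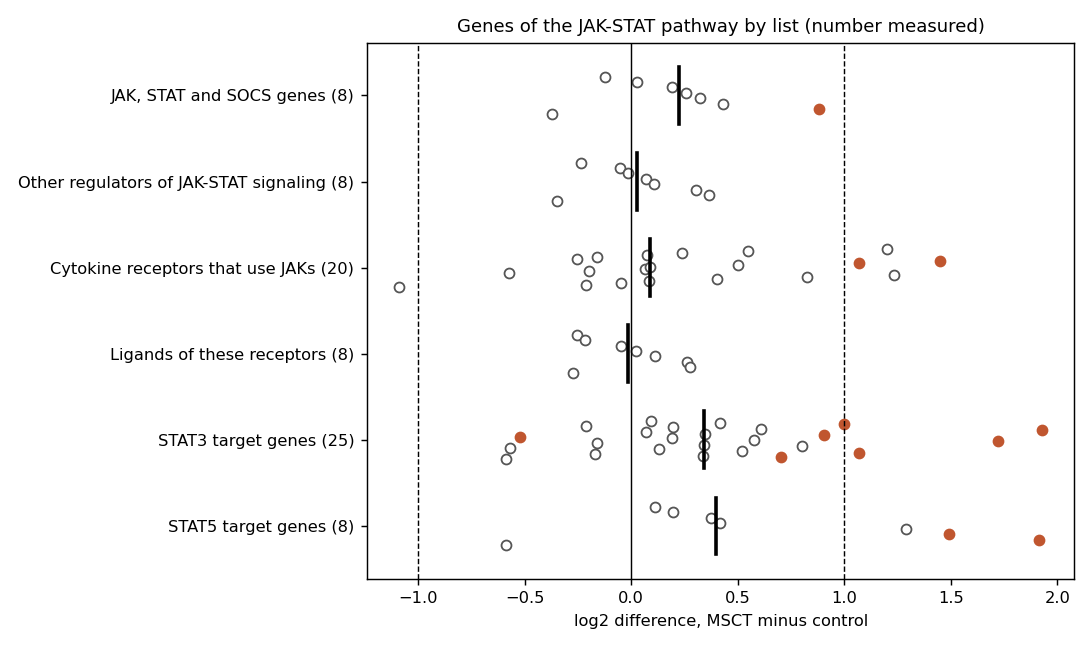
Log2 difference, MSCT minus control (x axis), of each measured gene of 5 pathway lists and of the JAK, STAT and SOCS genes (points, spread vertically for legibility), with filled points for an unadjusted limma p under 0.05, the list's median as a black bar and 2-fold differences as dashed lines; Bcl2l1, Ccnd1, Il4r, Osmr and Pim1 appear in 2 lists each. The median is 0.34 for STAT3 target genes and 0.40 for STAT5 target genes, 0.087 for receptors and -0.013 for ligands.

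Of the STAT3 target genes, 25 of 30 were measured, and 19 were higher in the MSCT group by any amount (median difference 0.34). At an unadjusted limma p under 0.05, 6 were higher and 1 lower, together 28.0% of the list. For all transcripts, 4.80% were higher and 7.17% lower at that limit, together 12.0%. Of the 6963 named genes, to which the list belongs, 475 were higher and 379 lower at that limit, together 12.3%. By any amount, 3882 of the named genes were higher, with a median of 0.053. The STAT3 target genes also answer to other regulators, so the list is not a readout of STAT3 alone. It was chosen with earlier results of these data known, so its share at that limit is a description and not a test. Lcn2, an iron-binding defense protein, had control intensities of 181 and 176 and MSCT intensities of 802 and 576. Il1rn, the antagonist of the interleukin-1 receptor, was at 290 and 209 against 692 and 954. Both passed the screen, as did Osmr, against 2.12% of all transcripts and 218 of the 6963 named genes in that direction. Icam1, an adhesion molecule for leukocytes, differed by 0.90, Hif1a, a factor of the hypoxia response, by 0.70, and the growth regulator Myc by 1.00, just under the 2-fold limit. Fos, an immediate early gene, went the other way, from 9661 and 9568 in the control group to 7065 and 6342 in the MSCT group, a difference of -0.52 (limma adjusted p = 0.407). Pim1, a kinase gene that both STAT3 and STAT5 induce, was also below 0 at -0.59 without passing the test. With any 1 array left out, Lcn2 and Il1rn stayed at an unadjusted limma p under 0.05. Fos was over it each time, Icam1 and Myc without MSCT replicate 2, Osmr without that array or control replicate 1, and Hif1a without control replicate 1 or either MSCT replicate. By the methods' t-test, the unadjusted p was over 0.05 for Hif1a, Myc and Osmr. The count of 7 genes was 5 without control replicate 1, 2 without MSCT replicate 2 and 9 without control replicate 2.

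Of the STAT5 target genes, 8 of 14 were measured and 7 were higher (median difference 0.40), beside 3882 of the 6963 named genes. Those at an unadjusted limma p under 0.05, both past the screen, were Igf1 and Gzmb, against 4.80% and 2.12% of all transcripts in that direction. Of the 6963 named genes, 475 and 218 were higher by these rules. Igf1, the growth factor induced by growth hormone through STAT5, was at 411 and 743 in the control group and 1485 and 1623 in the MSCT group (difference 1.49, standard error 0.34; limma adjusted p = 0.307). Gzmb, a granzyme of cytotoxic lymphocytes, was at 117 and 58.5 against 313 and 312. Each stayed at an unadjusted limma p under 0.05 with any 1 array left out, and each was over it by the methods' t-test. No gene of the pathway lists given here passed an adjusted p of 0.05.

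Markers of white blood cells were set beside Jak3, since these cells carry it. Of the T cell markers, 4 of 10 were measured, and the defining markers Cd3d, Cd2, Cd5 and Cd8b were blank on all 4 arrays. The summed intensity of the 4 was 835 and 646 in the control group and 1306 and 1039 in the MSCT group. Most of this gap was Zap70, at 114 and 95.6 against 612 and 245 (difference 1.89, limma adjusted p = 0.325), whose unadjusted limma p was over 0.05 without control replicate 1 (2.02) or control replicate 2 (1.77), and also by the methods' t-test. Without Zap70, the sums of the other 3 overlapped, at 721 and 550 against 694 and 794. Cd3g (0.13), Cd4 (0.37) and Cd8a (0.0058) did not pass the test.

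Markers of other leukocytes were set beside Jak3 as well. Of the NK cell markers, 2 of 5 were measured, with summed intensities of 162 and 384 in the control group and 609 and 665 in the MSCT group. Nkg7 differed by 1.72 and had an unadjusted limma p under 0.05, as did 4.80% of all transcripts in that direction. By the methods' t-test the unadjusted p of Nkg7 was over 0.05. Klrb1a differed by 0.82 without passing the limma test. Of the macrophage markers, 4 of 6 were measured, with sums of 11834 and 13363 against 14138 and 16346. Cd14 made up most of each sum, at 9308 and 10814 against 8986 and 10578, and differed by -0.041. Cd68 (1.29, limma adjusted p = 0.260) and Csf1r (1.00, limma adjusted p = 0.270) passed the screen, against 2.12% of all transcripts in that direction. Their differences were 1.14 to 1.44 and 0.96 to 1.05 when single arrays were left out. By the methods' t-test and by limma, Cd68, Csf1r and Adgre1 (0.64, limma adjusted p = 0.351) were higher at an unadjusted p under 0.05. By limma, 4.80% of all transcripts were higher at that limit. Adgre1 was at that limit with control replicate 1 left out (0.71) and not with any 1 of the other arrays left out (0.57 to 0.71). Neutrophil markers (2 of 6 measured) had sums of 321 and 204 against 493 and 391, with S100a9 at 0.54 and Fcnb at 1.14. The mast cell markers (2 of 5 measured) had sums of 920 and 702 against 1051 and 767. No B or plasma cell marker was measured. The part of these cells in the values of Jak3, Il2rg and the target genes was not tested.

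**Figure D4:**
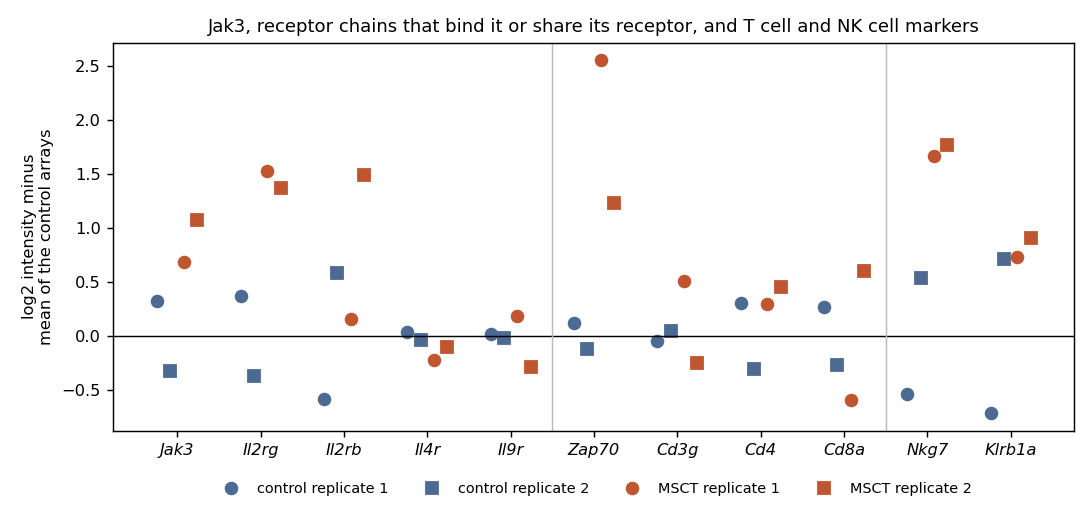
Log2 intensity minus the mean of the control arrays (y axis) for Jak3 and the receptor genes Il2rg, Il2rb, Il4r and Il9r (left), T cell markers (middle) and NK cell markers (right), with blue for control, orange for MSCT, circles for replicate 1 and squares for replicate 2. Both MSCT arrays lie above both control arrays for Jak3, Il2rg, Zap70, Nkg7 and Klrb1a, and not for Il2rb, Il4r, Il9r, Cd3g, Cd4 and Cd8a.

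Markers of the wall tissues were described in the same way. The 8 epithelial markers had a median difference of 0.17 and none passed the test, and their sums were 153306 and 145702 in the control group and 165202 and 160426 in the MSCT group. The 5 smooth muscle markers had a median of 0.020, which lay between -0.10 without control replicate 2 and 0.18 without control replicate 1. The 2 endothelial markers measured were at 0.053 and 0.29. The 3 fibroblast markers had a median of 0.028, which was 0.61 without control replicate 1 and -0.26 without control replicate 2, with Col1a2 higher (0.62) at an unadjusted limma p under 0.05. Of the 5 markers of enteric neurons and glia, Elavl4 (-1.06) and Uchl1 (-0.54) were lower at that limit and Gfap was at 1.06 without passing it. With single arrays left out, Uchl1 was over the limit each time, Col1a2 except without control replicate 1 and Elavl4 except without control replicate 2, and by the methods' t-test Col1a2 and Elavl4 were over it. Stat2 was lower in the same comparison, and the part of these cells in it was not tested.

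The genes with the most similar pattern to each member were taken as a description, by the distance between log2 profiles centered on their mean over the 4 arrays, among the other 6962 named genes. For Jak3 these were Nrg1, a growth factor (distance 0.094), and Bgn, a matrix proteoglycan (0.14). Stat3 had Sar1a (0.016), and Socs3 had Pex16 (0.018) and Fam110a (0.031). For Socs2, they were the inflammasome protease Casp1 (0.024) and Nop58 (0.055), and for Socs1 Tmod1 (0.028) and Zc3hav1 (0.039). Jak2 had Pdlim2 (0.043) and Rpl24 (0.054), Stat5a had Orc4 (0.049) and Tub (0.065), and Stat5b had Prdx2 (0.025) and Mnat1 (0.045). No member was among the closest genes of another member. With 4 arrays and 6962 genes, close profiles are found for almost any gene.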

How the data were processed

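Total RNA of the colon was copied into cDNA, labeled with Cy3 and hybridized to NimbleGen arrays. The values deposited by the authors are 1 linear intensity per RefSeq transcript and array, read on a GenePix instrument and analysed in NimbleScan. The submitters' processing notes list RMA, a method that corrects background, equalizes arrays and summarizes probes. Which of its steps were applied, and why 8070 of 26420 rows are blank on all 4 arrays, is not given in the sources used here. Precision is limited by the number of arrays.

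Intensities were converted to log2 values without a pseudocount, further scaling or a filter, and compared by a linear model with moderated variances (limma 3.58.1, R 4.3.3, default settings), with Benjamini-Hochberg adjustment over 18350 rows. The script was tested on simulated data. Rows were named by unversioned accession from RefSeq's rat gene table (GRCr8), which also gave gene order, and RefSeq promoters of the same assembly were read. No value column was left without a sample (0). Tables and figures were made with Python 3.11.15, pandas 2.3.3 and matplotlib 3.10.9.

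The members and lists were chosen with earlier results of these data known. Named are the members, list genes with an unadjusted p under 0.05 and groups that do not overlap (up to 8 per direction, otherwise up to 3 with the largest difference) and 2 genes of most similar pattern per member; some results under this rule are not reported here. Further genes (Stat6, Pim1, Il6r, Il6st, Il2rb, Il4r, Il9r and Lepr) and the cell markers given by value were chosen after their values were seen. Alternatives were the methods' t-test, other scalings, variance models and array weights, a replicate block, omission of single arrays or dim rows, ratios of linear means and a fold limit of 1.5.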

Additional observations from a re-analysis of the deposited data

How the results depend on the processing

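For Jak3, the methods' t-test (0.88) and the replicate block (0.88) ended the call at an unadjusted p under 0.05, whereas for Socs2 an intensity-dependent variance gave one (0.43). Leaving out each array in turn gave 0.55 to 1.21 for Jak3, -0.32 to 0.073 for Jak2 (its sign turned without control replicate 1) and -0.13 to 0.18 for Stat5b (below 0 at -0.13 with control replicate 2 left out and at -0.094 with MSCT replicate 2 left out), and the signs of the other 6 members held in every setting run. The number of members past the screen was 1 with a fold limit of 1.5 and 0 to 1 with arrays left out. The number with an unadjusted p under 0.05 was 0 with the methods' t-test, with the replicate block and without the dimmest 50% of rows. Jak3 is not among the rows of the last of these settings. With an intensity-dependent variance the number was 2. Over all rows, 850 passed the screen, and 388 with the methods' t-test, 251 without the dimmest 50% of rows, 2019 with a fold limit of 1.5 and 934 to 1565 with arrays left out. The 2196 rows at an unadjusted p under 0.05 became 1328 to 2688 with arrays left out. An adjusted p of 0.05 was passed by 387 rows with an intensity-dependent variance, 4 without the dimmest 25% of rows and 247 without the dimmest 50%, with no member among them. The same-numbered arrays of the groups deviated together (correlation 0.23 over 18350 rows), but the numbers are not known to mark a shared litter or day, so they were not taken as pairs. No member had several measured rows, so averaging rows was not run. Background signal was not used here, so no limit from dim probes was set.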
